A study of Rattus norvegicus with 12 samples.

Results

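The bronchial wall of rats that had breathed filtered air was described here on its own, as the baseline of a study of 2,3-pentanedione (PD), a butter-flavouring vapour. The 6 arrays titled as air-exposed controls were taken, of 12 arrays in the series, by their labels and with no measured value. The rats were male Wistar rats of the Wistar Han stock, and their age is not in the labels. The other arrays, 3 of fibrotic and 3 of non-fibrotic bronchi, came from male rats that inhaled 200 ppm PD for 2 weeks and served only for values set side by side. All specimens came from the right diaphragmatic lobe. By the study's methods, epithelium, lamina propria, muscle and adventitia were cut from frozen sections by laser, guided by stained neighbouring sections, so every specimen is a mixture of cell types. The methods describe as many control rats as there are control arrays, and fibrotic and non-fibrotic bronchi cut from the same exposed rats, but the labels tie no array to a rat. The p-values below therefore measure only the spread between these arrays, which may be partly technical.

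The lining of a bronchus is built mainly of ciliated cells, whose beating axonemes move mucus, and of secretory cells. In rodents the chief secretory cell is the club cell, which releases secretoglobin and carries enzymes that oxidise inhaled chemicals. Goblet cells and submucosal glands make mucins, and basal cells are the keratin-rich progenitors of the larger airways. Below the epithelium lie smooth muscle, fibroblasts that lay down collagen, vessels and scattered leukocytes.

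The labels of control replicates 1 and 2 have one form and those of replicates 3 to 6 another, with a sample name added. These are called set A (2 arrays) and set B (4 arrays). The 2 sets differed in array controls that carry no rat biology. The 24 probe sets for bacterial poly-A control transcripts had a mean log2 signal of 2.32 in set A and 10.35 in set B, and the 18 probe sets for hybridization controls had 13.67 and 12.44. The 3′ minus 5′ log2 signal of Gapdh, a sign of RNA or amplification length, was 1.16 and 2.03 in set A and between 0.70 and 0.90 in set B. The highest gene signal was 14.86 and 15.22 in set A and 13.98 to 14.31 in set B on the log2 scale, so the scale reached less high in set B. Across 14217 genes, Pearson's r was 0.90 between the arrays of set A, 0.95 to 0.96 among those of set B and 0.89 to 0.91 between sets, where all points share the probes and their brightness. Whatever set the sets apart in handling and whatever differed between the rats cannot be told apart.

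Abundance was therefore described by the percentile of a gene among the 14217 genes of its own array, where 100 is the brightest. A gene was represented by its brightest probe set. Signals of different genes also depend on their probes, so the order is a description and no gene was tested against another. In bulk tissue, fewer cells of a type and less RNA per cell cannot be told apart. Log2 signals below 5.86, the highest value given by control probe sets without a matching transcript, were not taken as measured levels. This level lay at the 20.2 to 23.0 percentile of the arrays.

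Promoter sequences of the RefSeq annotation of rat build GRCr8 are shown for the gene at the top of the order and for ciliated cell genes, which with club cell genes had the highest median ranks of the cell type lists. Each run covers 250 bases before the annotated start, 5′ to 3′ on the strand of the gene. Capitals mark TATAAA, the TATA box, in Scgb1a1, and GTTGCC or its reverse complement GGCAAC in the others. GTTGCC is the core of the X-box, the element that RFX factors bind. Lrrc23, Drc12 and Ccdc113 are shown because they were the 3 highest-ranked ciliated cell genes whose promoter held it.
Scgb1a1, chr1:215409687-215409936, minus strand: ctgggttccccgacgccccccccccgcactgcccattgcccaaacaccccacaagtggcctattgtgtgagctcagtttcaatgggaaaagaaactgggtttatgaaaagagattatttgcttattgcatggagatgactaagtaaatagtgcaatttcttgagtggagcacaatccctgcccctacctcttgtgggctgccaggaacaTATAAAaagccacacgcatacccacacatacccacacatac
Lrrc23, chr4:159277765-159278014, minus strand: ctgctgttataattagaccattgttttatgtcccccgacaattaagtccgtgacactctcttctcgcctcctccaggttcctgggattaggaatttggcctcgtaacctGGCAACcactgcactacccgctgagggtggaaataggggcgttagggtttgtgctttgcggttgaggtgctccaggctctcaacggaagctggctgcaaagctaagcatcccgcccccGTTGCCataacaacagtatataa
Drc12, chr8:53474409-53474658, plus strand: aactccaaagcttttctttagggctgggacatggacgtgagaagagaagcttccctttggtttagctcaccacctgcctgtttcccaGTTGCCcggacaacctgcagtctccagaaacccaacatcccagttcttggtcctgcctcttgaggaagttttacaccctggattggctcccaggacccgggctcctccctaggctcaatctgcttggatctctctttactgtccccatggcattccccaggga
Ccdc113, chr19:9522958-9523207, minus strand: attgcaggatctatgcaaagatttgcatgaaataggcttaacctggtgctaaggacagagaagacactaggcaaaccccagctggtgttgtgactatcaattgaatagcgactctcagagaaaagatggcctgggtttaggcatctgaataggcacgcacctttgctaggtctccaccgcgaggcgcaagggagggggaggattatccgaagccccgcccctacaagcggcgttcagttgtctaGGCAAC

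The TATA box of Scgb1a1 began 41 bases before the start. Of the 25 ciliated cell genes with a promoter entry, of 30 measured, 11 (44.0%) held GTTGCC on either strand. Over all genes the share was 1189 of 11733 promoters (10.1%). Among the 15 club cell genes with an entry it was 1 (6.67%), and among the 12 smooth muscle genes it was 1 (8.33%). TATAAA on either strand was in 946 of the 11733 promoters (8.06%), in 4 of the 15 of club cell genes (26.7%) and in 1 of the 25 of ciliated cell genes (4.00%). These matches are letters in a window and carry no test.

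The 30 brightest genes of the control bronchi included secretory products of the airway lining, ribosomal proteins and mitochondrial transcripts. Scgb1a1, which encodes the club cell secretoglobin and is the classic marker of that cell, was the brightest gene on every array. Its log2 signals on replicates 1 to 6 were 14.86, 15.22, 13.98, 14.18, 14.31 and 14.18, and its rank was 1 on each. The arrays of set A lay above those of set B by signal, yet the rank did not move.

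Wfdc2, a secreted protease inhibitor of airway epithelium, followed closely with log2 signals of 14.45, 14.77, 13.77, 13.99, 14.10 and 14.05 on replicates 1 to 6. Its percentile did not fall below 99.97. Genes of the ribosomal protein list held 11 of the 30 highest places, led by Rps29 and Rpl41. COX1 and COX2, the mitochondrially encoded subunits of cytochrome c oxidase, had mean percentiles of 99.94 and 99.95, and Ndufa1, a subunit of complex I, had 99.89. The 3 genes belong to the respiratory chain.

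Other highly ranked genes marked distinct parts of the wall. Lyz2, lysozyme of macrophages and of secretory cells, had a mean percentile of 99.76, and Mgp, a matrix protein of fibroblasts and vessel walls that inhibits calcification, had 99.73. Dynlrb2, a dynein light chain of cilia, had 99.75, and Aldh1a1, a retinaldehyde dehydrogenase of club cells, had 99.72. Txn1, thioredoxin, had 99.87, and Gsn, gelsolin, which severs actin filaments, had 99.90.

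Gene names came from the annotation of the array, and the levels are those of the probe sets. Gosr1, a Golgi transport protein, was second in rank at a mean percentile of 99.99, but its 2 other probe sets stood at the 74.0 and 52.9 percentile among all probe sets. Cxcl3, a neutrophil chemokine, had a mean percentile of 99.76, and its 4 other probe sets ranged from the 74.0 to the 99.4 percentile. Whether the bright probe set of Gosr1 measures that gene was not tested. The same holds for Myh1, a myosin of skeletal muscle, which was in the top 1% on all 6 arrays by its brightest probe set, with the next of its 5 probe sets at the 99.01 percentile.

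**Figure D1:**
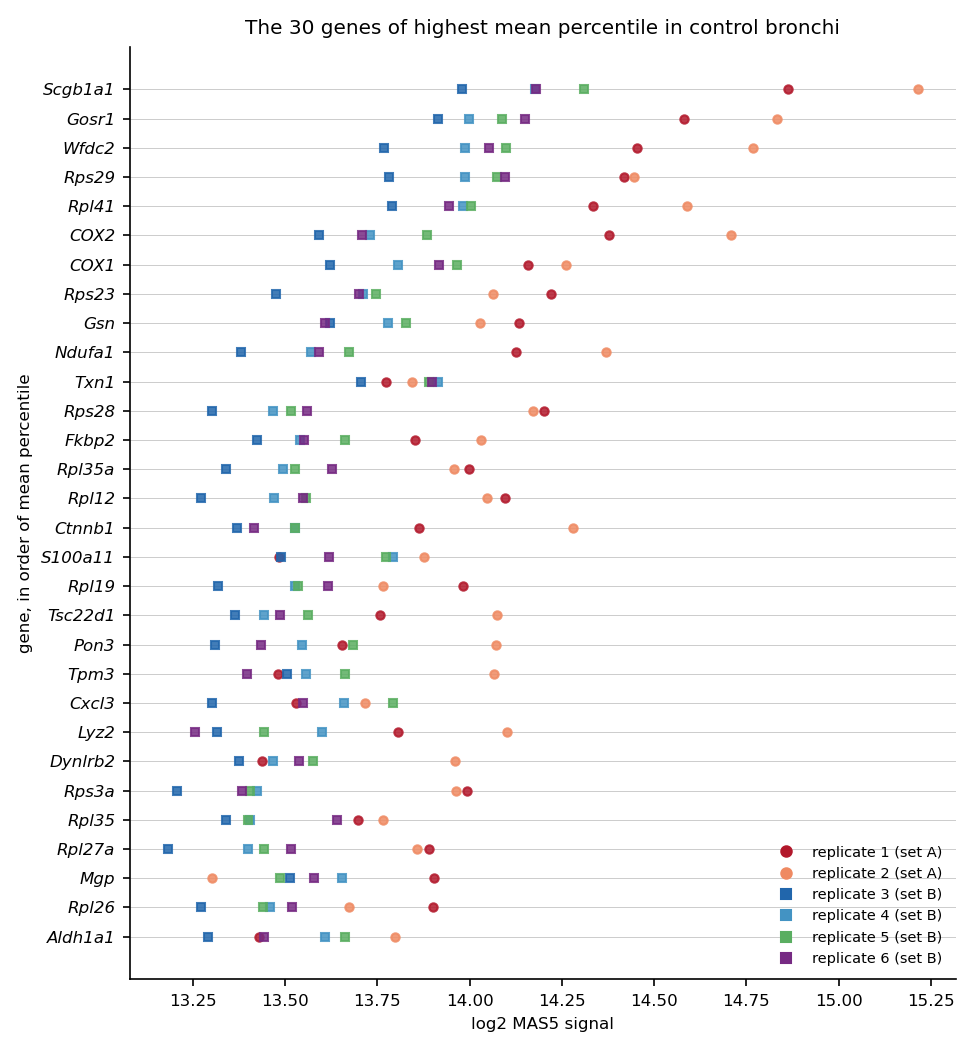
Log2 MAS5 signal (x axis) of the 30 genes of highest mean percentile (y axis) on each of the 6 control arrays, circles for set A and squares for set B. Scgb1a1 is at the top on every array, and most genes show set A to the right of set B, with Txn1 and S100a11 among the exceptions.

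The top 1% of an array held 143 genes, and 77 of them (53.8%) were in the top 1% on all 6 arrays. Within set A 112 genes were in the top 1% on both arrays, and within set B 113 were on all 4. Any pair of arrays shared 78.3% of the top 1% within set A, 85.3 to 89.5% within set B and 67.1 to 72.0% between sets. The 77 genes held 28 ribosomal protein genes, 3 of the club cell list, 3 of the fibroblast list and 2 of the ciliated cell list. Atp5f1e, a subunit of ATP synthase, was the member nearest to the limit, with a lowest percentile of 99.01, and Gstm1, a glutathione transferase, lay just outside at 98.99. Genes of the top 1% made up 10.4 to 15.1% of the summed signal of an array.

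Ribosomal protein genes had the highest median of all lists. Of 47 measured, 38 were in the top 10% and 32 in the top 1% by mean percentile, and the median percentile was 99.5. The exceptions at the bottom were Rpl3l, a muscle form of Rpl3, at the 6.58 percentile, Rpl28 at 18.4 and Rpl30 at 20.6. The list took 2.76 to 3.96% of the summed signal of an array. The oxidative phosphorylation genes, which make up the respiratory chain and ATP synthase, had 51 of 78 in the top 10% and a median percentile of 93.9. Over all genes 1292 of 14217 were in the top 10% and the median was 50.2.

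Markers of ciliated and club cells were high, while the goblet and basal cell lists had median percentiles of 52.8 and 37.6. Of 30 ciliated cell genes measured, 29 were above the level of absent transcripts on all arrays, 20 were in the top 10% and 4 in the top 1%, with a median percentile of 94.1. Dynlrb2 and Rsph1, a protein of the radial spoke head, led the list. Log2 signals of Rsph1 were 13.67, 14.06, 13.05, 12.99, 13.29 and 13.22 on replicates 1 to 6.

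Tppp3, a tubulin-binding protein, and Zmynd10, an assembly factor of dynein arms, had mean percentiles of 99.27 and 99.08. Foxj1, the master transcription factor of motile cilia, gave 12.35, 12.94, 12.09, 12.07, 12.39 and 12.28, and its mean percentile was 97.4. The heavy dynein chains were lower in rank, with Dnah1 at 94.7 and Dnah2 at 81.2. The lowest of the list was Meig1, a protein of sperm and ciliated cells, at 30.1.

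The club cell list had 13 of 20 genes in the top 10% and 6 in the top 1%, with a median percentile of 93.8. Besides Scgb1a1 and Aldh1a1 the highest were Ces1d, a carboxylesterase, at 99.52 and Sec14l3, a lipid-binding protein, at 99.30. The cytochromes P450 of the list, which oxidise inhaled chemicals, were high in part of the family only. Of 40 genes of families 1 to 4 measured, 20 were under the level of absent transcripts on every array and 3 were in the top 10%.

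Those 3 were Cyp2a3, Cyp2f4 and Cyp4b1. Cyp2f4 gave 13.00, 13.39, 13.02, 13.06, 13.02 and 12.97 on replicates 1 to 6, so its arrays overlapped between sets. Cyp1a1 and Cyp1a2, the dioxin-inducible members, had mean percentiles of 3.49 and 5.83 and no array above the level. The median percentile of the family was 16.1.

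Antioxidant genes were high. All 25 measured genes of glutathione metabolism and of the Nrf2 response were above the level on all arrays, 14 were in the top 10% and 4 in the top 1%, with a median percentile of 94.6. Sod1, which removes superoxide, had 99.37, Prdx6, a peroxiredoxin, had 99.24, Gsta1, a glutathione transferase, had 99.22 and Gstm1 had 99.21. Hmox1, the inducible haem oxygenase, was the lowest of the list, at 44.0.

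Below the epithelium, smooth muscle and fibroblast genes were abundant. The smooth muscle list had 9 of 18 genes in the top 10% and none in the top 1%, with a median percentile of 90.2. Tpm1 and Tpm2, tropomyosins, had 98.92 and 98.84, and Myl9 and Mylk, the regulatory light chain of myosin and its kinase, had 96.93 and 96.61. Acta2, smooth muscle actin, had 95.4.

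The fibroblast list had 5 of 16 genes in the top 10% and 3 in the top 1%, with a median of 82.1. The 3 were Mgp and the fibrillar collagens Col1a1 at 99.66 and Col3a1 at 99.68. Log2 signals of Col1a1 were 14.17, 13.91, 13.14, 13.33, 13.19 and 13.32 on replicates 1 to 6, with set A above set B. Of 8 cartilage genes, 0 were above the level on all arrays and 3 were under it on all arrays, and the median percentile was 14.0.

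Surfactant genes were high in the labelled bronchial wall. The 3 genes of the alveolar type II list in the top 1% were Sftpd at 99.72, Sftpa1 at 99.39 and Sftpb at 99.02, surfactant proteins that airway secretory cells also make. Sftpc, which is largely restricted to alveolar type II cells, gave 12.62, 9.91, 12.21, 13.10, 12.94 and 10.51 on replicates 1 to 6. It was highest on replicates 4 and 5 and lowest on replicates 2 and 6, with both sets overlapping.

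The list as a whole had a median of 82.2 over 12 genes. Ager, the defining marker of alveolar type I cells, had a mean percentile of 35.0, and its log2 signals ran from 6.47 to 8.54. The alveolar type I list as a whole had 2 of 10 genes in the top 10% and a median of 64.5, led by Hopx and Cav1, which other cells also express. The part of alveolar tissue in these specimens was not tested.

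Vessels and leukocytes gave middle to low ranks. No endothelial gene of 16 was in the top 10%, the median percentile was 49.2, and the brightest was Kdr, a receptor of VEGF, at 86.1. The macrophage list had a median of 47.1 over 13 genes, with only Lyz2 in the top 10% and Cd68 at 46.2. The T and NK cell list had a median of 34.5, the mast cell list 29.0 and the granulocyte list 28.9. Red cell genes had a median of 30.7 over 5 genes, with Hbb, a beta globin, at 82.9.

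Rare epithelial cells were near or under background. Neuroendocrine genes had a median percentile of 24.5 with 2 of 10 above the level on all arrays, and genes of ionocytes and tuft cells 25.0 with 2 of 8. Schwann cell and nerve genes had a median of 19.5. Muc5ac, the goblet cell mucin, ranged from 1.82 to 3.47 on the log2 scale and was under the level on every array. Proliferation genes had a median of 34.0 over 11 genes, though Aurkb, a mitotic kinase, stood at 97.2.

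**Figure D2:**
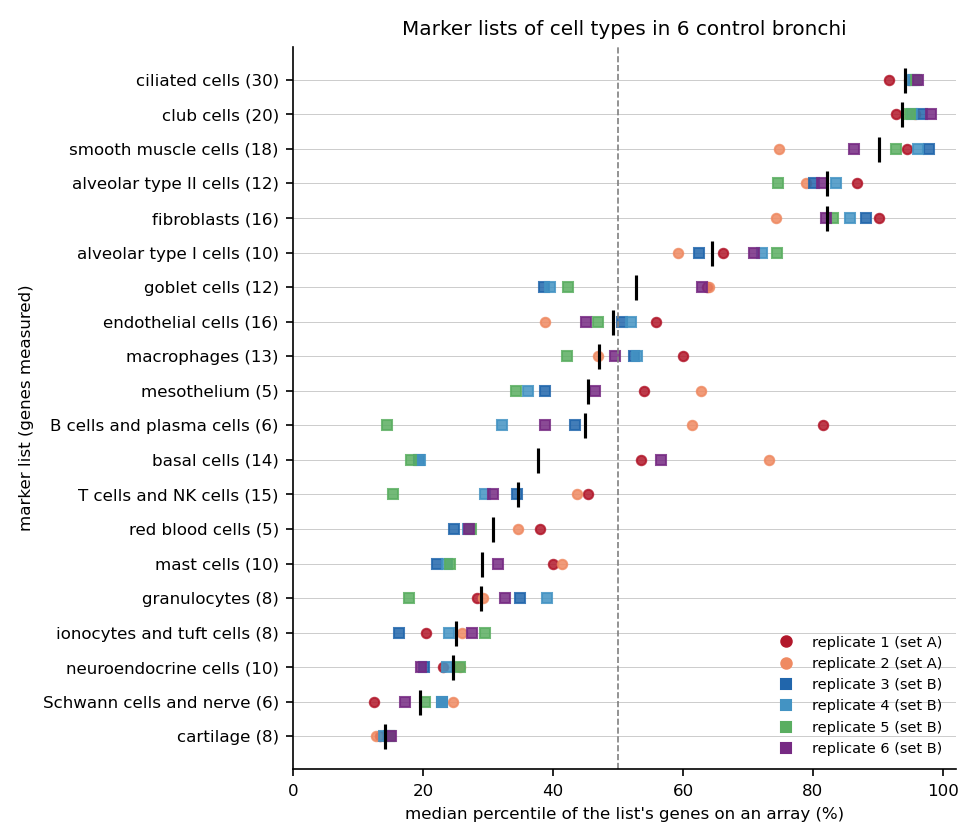
Median percentile (x axis) of the genes of each cell type list (y axis, number measured in brackets) on each control array, circles for set A and squares for set B. Black bars give the median of the genes' mean percentiles and the dashed line the middle of all genes. The ciliated and club cell lists lie between 91.8 and 98.3 on all arrays, while basal, goblet and B cell lists spread widely between arrays.

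Abundant genes varied least. The median range over the 6 arrays was 3.32 on the log2 scale in the lowest class of mean percentile (0 to 10) and 0.67 in the top 1%, with 1.26 over all genes. A gene was called stable when its range was under 1 and the 95% interval of its difference between sets lay within 1 in either direction. This held for 4495 of 14217 genes (31.6%), for 860 genes between the 90 and 99 percentile (73.4%) and for 84.3% of the 121 in the top 1%. The share over all genes counts those under the level, with 0 stable genes in the class of 0 to 10 and 3 in that of 10 to 20. With the spread estimated over all 12 arrays, 2532 genes met it.

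**Figure D3:**
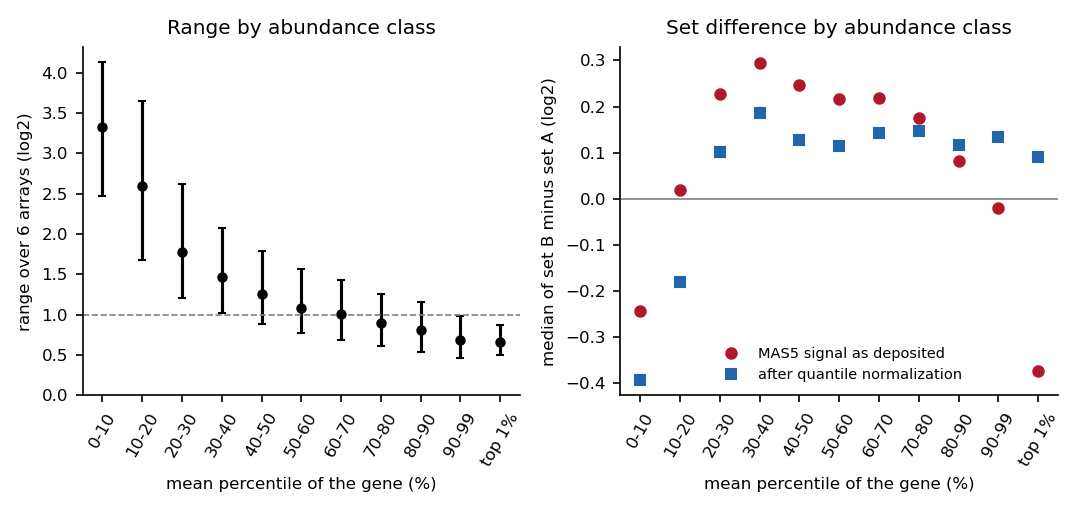
Left, range of log2 signal over the 6 control arrays (y axis; points, median over genes; bars, 25th to 75th percentile) by class of mean percentile (x axis), falling from 3.32 to 0.67. Classes below 20 lie largely under the level of absent transcripts. Right, median log2 difference of set B minus set A in the same classes, as deposited and after quantile normalization; in the top 1% it is -0.37 as deposited and 0.09 after.

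By list, 41 of 47 ribosomal protein genes (87.2%) and 57 of 78 oxidative phosphorylation genes (73.1%) were stable. The ciliated list had 19 of 30 (63.3%), the club cell list 7 of 20 (35.0%) and the fibroblast list 5 of 16 (31.2%). No smooth muscle gene of 18 and no goblet cell gene of 12 was stable. Of common reference genes 7 of 10 were, among them Eef1a1, the elongation factor, with 13.80, 13.70, 13.17, 13.35, 13.39 and 13.36 on replicates 1 to 6. Stable genes could still differ between sets within the limit of 1. B2m, a stable reference gene, differed by -0.75 ± 0.11 (SE, limma adjusted p = 0.0053), with set A wholly above set B. The same order of sets held for 30 of the 47 ribosomal protein genes.

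Among the top 1%, thioredoxin had the smallest range. Its log2 signals were 13.77, 13.84, 13.71, 13.92, 13.89 and 13.90, a range of 0.21. Itm2b, a membrane protein, had a range of 0.22, Ddx5, an RNA helicase, 0.26, Ifitm3, an interferon-induced membrane protein, 0.30, and Rpl11 0.31. Rps16, Spcs1, Mrfap1, Tcp1 and Prrc2c followed with ranges of 0.32 to 0.36. The difference of Txn1 between sets was 0.04 as deposited and 0.57 after quantile normalization, so which genes are level depends on the scaling.

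The widest ranges in the top 1% were those of Cd74 (1.97), Dek (1.68), Sftpb (1.61) and Hsp90ab1 (1.35). Cd74, the invariant chain of MHC class II, gave 14.38, 14.18, 13.22, 13.27, 12.40 and 13.41 on replicates 1 to 6, with replicate 5 lowest. Dek, a chromatin protein, was highest on replicate 1 at 14.35, and between 12.67 and 13.47 on the others. Scgb1a1 itself had a range of 1.24 with an unchanged rank. Cyp2a3, Srsf2, Ywhae, Sftpa1 and Marcks completed the 10, with ranges of 1.14 to 1.25.

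Among genes in the top 1% of at least 1 array, some of the widest ranges were those of secreted products, and they crossed the 2 sets. Bpifa1, an antimicrobial protein of airway secretory cells and glands, gave 14.13, 14.86, 4.65, 4.00, 4.46 and 13.84 on replicates 1 to 6. It was among the top 1% on replicates 1, 2 and 6 and under the level of absent transcripts on replicates 3, 4 and 5. Its range of 10.87 on the log2 scale includes those values under the level.

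Muc5b, the gel-forming mucin of airway glands and secretory cells, gave 14.19, 14.58, 11.79, 10.44, 9.04 and 13.20, and Scgb3a1, a secretoglobin, 14.32, 14.76, 12.28, 11.09, 10.05 and 13.72. Clca1, a protein secreted with mucus, gave 13.27, 13.44, 8.65, 9.15, 8.88 and 13.33. In these 3 genes replicates 1, 2 and 6 were above replicates 3, 4 and 5, and Gp2, a membrane glycoprotein, had the same order with values from 7.58 to 13.57. Agr2, a mucin-folding enzyme, was high throughout, from 12.39 to 13.43.

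Other secreted products had another order. Slpi, a protease inhibitor of airway secretions, gave 12.45, 11.72, 12.28, 12.19, 8.46 and 11.44 on replicates 1 to 6 and was lowest on replicate 5. Chia, a chitinase, gave 11.77, 10.11, 13.03, 13.32, 13.50 and 12.95, with every array of set B above set A (difference 2.26 ± 0.40, SE, limma adjusted p = 0.010, not called).

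Basal cell keratins were high on the same arrays as Muc5b and Bpifa1, namely replicates 1, 2 and 6. Krt5 gave 8.83, 10.01, 3.89, 2.81, 3.84 and 9.51 on replicates 1 to 6, and Krt14 gave 9.12, 9.96, 5.29, 3.22, 4.17 and 9.17. Both were under the level on replicates 3, 4 and 5. Tp63, the transcription factor of basal cells, gave 6.31, 7.87, 5.18, 3.96, 4.10 and 7.50, and Krt17 and the water channel Aqp3 had the same division of the arrays.

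The basal cell list as a whole had median percentiles of 53.5, 73.3, 19.3, 19.5, 18.2 and 56.6 on replicates 1 to 6, and the goblet list 63.7, 64.0, 38.6, 39.6, 42.3 and 62.9. Mcpt1, a mast cell protease, was high on the same 3 arrays, with 12.65, 11.87, 8.34, 7.55, 9.44 and 11.85. The ciliated list, from 91.8 to 96.2 over arrays, had no such division, but 21 of its 30 genes were lowest on replicate 1. Replicate 6 belongs to set B, and none of the genes named here was called between the sets.

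Lymphocyte genes had another order. Ms4a1, which encodes the B cell antigen CD20, gave 9.55, 8.72, 7.10, 6.69, 0.28 and 7.67 on replicates 1 to 6, Cd79b, of the B cell receptor, 10.89, 8.88, 8.40, 6.96, 3.17 and 8.10, and Cr2, a complement receptor of B cells, 10.59, 9.22, 8.04, 6.52, 2.40 and 8.56. Cd3e, of the T cell receptor complex, gave 9.68, 9.46, 7.54, 7.02, 3.53 and 7.19. All 4 were under the level on replicate 5 and highest on replicate 1.

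The MHC class II list, of genes that present antigen, was also lowest on replicate 5, with median percentiles from 61.7 on replicate 5 to 94.6 on replicate 1. The granulocyte genes S100a8 and S100a9, which form calprotectin, were also lowest on replicate 5, at 7.55 and 8.09, and highest on replicate 4, at 11.55 and 12.13. Jchain, the joining chain of polymeric immunoglobulin, was 11.79 on replicate 1 and 6.14 on replicate 2. Lymphoid tissue lies along rat bronchi, and its part in these values was not tested.

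Replicate 2 was the lowest array for 14 of 18 smooth muscle genes and 11 of 16 fibroblast genes. This also held for 12 of 16 endothelial genes, with a list median percentile of 38.7 there and 45.0 to 55.8 on the others. Outside these lists, replicate 2 was lowest for 31 of 78 oxidative phosphorylation, 6 of 47 ribosomal protein and 1 of 30 ciliated cell genes. The share over all genes was not counted. Myh11, the heavy chain of smooth muscle myosin, gave 12.87, 10.57, 12.93, 12.87, 12.74 and 12.31 on replicates 1 to 6, and Tagln, transgelin, 12.36, 9.95, 12.58, 12.49, 12.23 and 11.72. Dcn, the proteoglycan decorin, was at 7.70 on replicate 2 and between 10.74 and 11.49 on the others. The smooth muscle list had a median percentile of 74.7 on replicate 2 and 86.3 to 97.9 on the others. Of the brighter members of these lists, Tpm2, Myl9, Mylk and Col1a2 were also lowest on replicate 2, at 12.14, 11.11, 11.13 and 11.50. Some others differed. Acta2 and Tpm1 were lowest on replicate 6, at 11.34 and 12.38, though Acta2 was close to that on replicate 2, at 11.41. Col1a1 and Col3a1 were lowest on replicate 3, at 13.14 and 13.30. The basal cell list had its highest median, 73.3, on replicate 2.

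**Figure D4:**
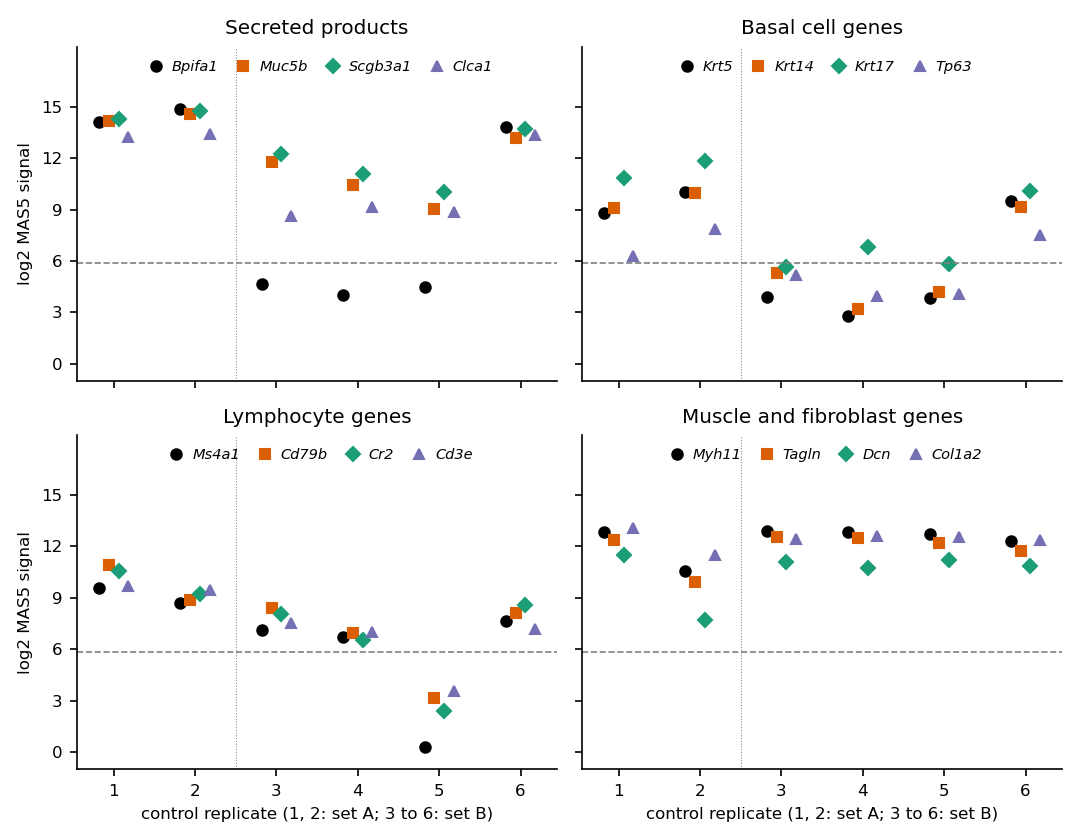
Log2 MAS5 signal (y axis) of 4 genes in each of 4 groups on control replicates 1 to 6 (x axis; dotted line, border between sets; dashed line, level of absent transcripts at 5.86). The secreted products and basal cell genes plotted are high on replicates 1, 2 and 6, the lymphocyte genes plotted are lowest on replicate 5, and the muscle and fibroblast genes plotted on replicate 2.

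Set B was then compared with set A over all 31042 rat probe sets with limma. At a Benjamini-Hochberg adjusted p under 0.01, 855 probe sets were higher in set B (2.75%) and 563 were lower (1.81%). In terms of genes, 528 were higher (3.71%) and 300 were lower (2.11%). After median centring 458 were higher and 615 lower, so the balance of directions turned with the scaling. With all 12 arrays in the fit, 139 of these 1418 calls passed. Leaving out replicate 3, 4, 5 or 6 left between 0 and 5 probe sets in each direction. Leaving out replicate 1 or 2 raised the counts to between 1229 and 3108.

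Every array of set B lay above every array of set A for 3801 genes (26.7%), and the reverse held for 2382 (16.8%). The median difference over probe sets was 0.10 on the log2 scale and 0.02 after quantile normalization. In the top 1% of genes it was -0.37 as deposited and 0.09 after quantile normalization, and 100 of 121 had a lower mean in set B against 44 of 121 after it. The direction of the brightest genes as a group thus turned with the scaling. The array controls described above differed between the same sets, and their part in these calls was not tested.

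Ribosomal protein genes were among those that turned. Of 47, 30 had set A wholly above set B (63.8%, against 16.8% of all genes). Called lower were 3 (6.38%, against 2.11% of all genes), and none was called higher, against 3.71%. Their median difference was -0.35 as deposited and 0.11 after quantile normalization. Rps28 gave 14.20, 14.17, 13.30, 13.47, 13.52 and 13.56, a difference of -0.72 ± 0.10 (SE, limma adjusted p = 0.0049) that was -0.14 after quantile normalization. Scgb1a1 likewise differed by -0.88 ± 0.13 (SE, limma adjusted p = 0.0061) and by -0.04 after quantile normalization. For Gosr1 the call of -0.67 turned to 0.07.

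The list of oxidative phosphorylation genes had a positive median difference under both scales. Of 78 oxidative phosphorylation genes, 11 were called higher in set B (14.1%, against 3.71% of all genes) and 2 lower (2.56%, against 2.11%). In 40 set B lay wholly above set A (51.3%, against 26.7% of all genes). The median difference was 0.34 as deposited and 0.40 after quantile normalization. Atp5mg, of ATP synthase, gave 10.97, 10.67, 12.19, 12.31, 12.25 and 12.37 (difference 1.46 ± 0.13, SE, limma adjusted p = 0.0024). Ndufc1 and Ndufv2, of complex I, differed by 1.52 and 1.46. The 2 lower ones were Ndufa1 and Atp5mf, of ATP synthase, which are among the brightest of the list. COX1 and COX2, outside the list, had set A wholly above set B, with differences of -0.38 and -0.81 (limma adjusted p = 0.058 and 0.0066) as deposited and 0.27 and -0.16 after quantile normalization.

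Among club cell genes, 3 of 20 were called higher in set B, against 3.71% of all genes, and 2 lower, against 2.11%. In 9 of 20 set A lay wholly above set B (45.0%, against 16.8% of all genes). In 4 of 20 set B lay wholly above set A (20.0%, against 26.7%). The median difference was -0.31 as deposited and 0.05 after quantile normalization. Cyp4b1, a cytochrome P450 of lung that activates furans and other inhaled compounds, gave 11.10, 11.57, 12.55, 13.08, 13.07 and 12.78 on replicates 1 to 6. It was higher in set B by 1.54 ± 0.19 (SE, limma adjusted p = 0.0039), with no overlap. Lypd2 and Pon1, a paraoxonase, were higher by 1.45 and 1.43. Cyp2a3 was lower by 0.97 on the log2 scale as deposited, with a difference of -0.55 after quantile normalization.

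Sftpb, surfactant protein B, was the only gene of the top 1% called higher in set B. Its log2 signals were 12.33, 12.42, 13.53, 13.86, 13.94 and 13.64, a difference of 1.37 ± 0.13 (SE, limma adjusted p = 0.0029). The other surfactant genes were not called, and Sftpd differed by 0.23 with overlapping sets. After quantile normalization Sftpd differed by 0.68 and passed (limma adjusted p = 0.0058, against 0.33 as deposited; range over alternatives 0.0058 to 0.94). In the fit of all 12 arrays the adjusted p of Sftpb was 0.22, and over all alternatives it ran from 0.00099 to 0.22.

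Dnah7 and Tekt2, of the axoneme, were the 2 of 30 ciliated cell genes called (6.67%), higher in set B by 1.07 and 0.89. Muc1, a membrane mucin, was higher by 1.60. Gsta4 and Nqo1, 2 of 25 antioxidant genes (8.00%), were higher by 2.00 and 0.92, while Gpx1 of that list differed by -0.60 (4.00%). Synm, an intermediate filament protein of muscle, was higher by 1.96, while Tpm1 was lower by 1.12 on the log2 scale. Each was 1 of 18 smooth muscle genes (5.56%). Of all genes 3.71% were called higher and 2.11% lower. No endothelial, macrophage, T cell, B cell or basal cell gene was called. With 6 to 16 genes in each of these lists and such shares over all genes, the absence of calls says little. Set A nonetheless lay wholly above set B for 5 of 6 B cell genes and 6 of 15 T and NK cell genes (83.3% of the former, against 16.8% of all genes), with median differences of -2.82 and -0.80.

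Among the 1292 genes of the top 10%, 56 were called higher in set B and 120 lower. Over all 14217 genes these counts were 528 (3.71%) and 300 (2.11%). The largest fall was that of Lbh. This gene, a transcriptional cofactor, gave 13.74, 14.05, 11.42, 11.44, 11.28 and 11.84 on replicates 1 to 6, a difference of -2.40 ± 0.17 (SE, limma adjusted p = 0.0021). Ephb3, an ephrin receptor, differed by -1.73, Ucp2, a mitochondrial carrier, by -1.68, and Huwe1, a ubiquitin ligase, by -1.66. Eya2, Itsn2, Ptms, Purb, Zfp36 and Vasp completed the 10, between -1.57 and -1.47.

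The largest rises were led by Fgfbp1, a carrier of fibroblast growth factors, with 10.45, 11.13, 12.46, 12.80, 12.86 and 12.59, a difference of 1.89 ± 0.20 (SE, limma adjusted p = 0.0030). Ptpn13, a tyrosine phosphatase, differed by 1.78, the uncharacterised LOC102554187 by 1.64, Tmem212 by 1.55 and Niban2 by 1.51. Ephx1, the microsomal epoxide hydrolase, differed by 1.38. These genes kept their direction after quantile normalization, with differences of 1.51 to 2.05.

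**Figure D5:**
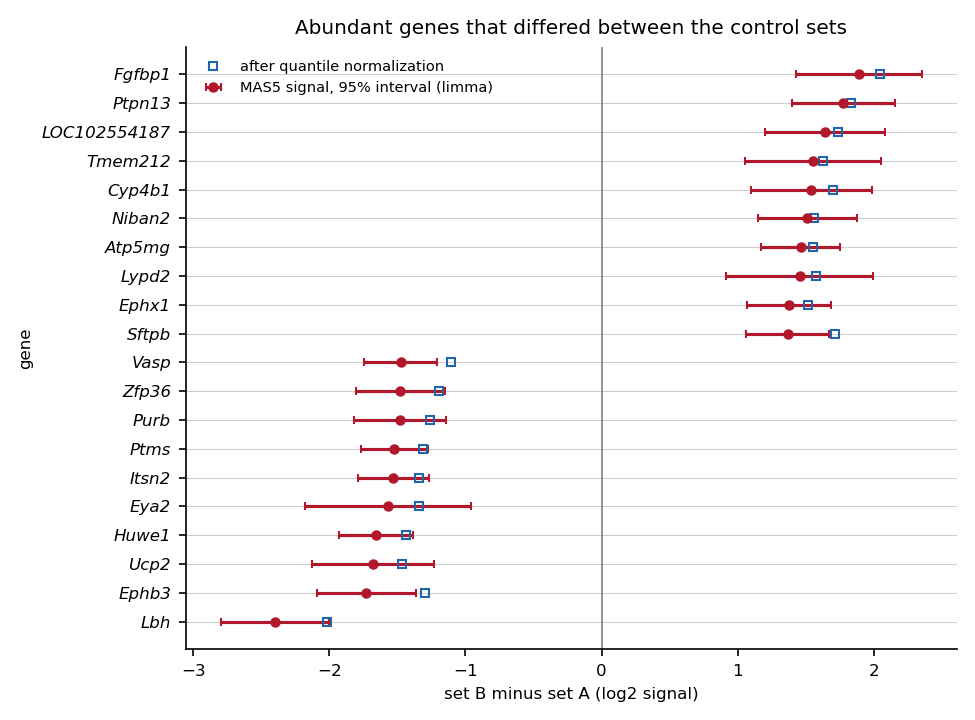
Log2 difference of set B minus set A (x axis) for the 10 largest falls and 10 largest rises called among genes of the top 10% (y axis), circles with the 95% interval of limma on signals as deposited, open squares after quantile normalization. Lbh at -2.40 and Fgfbp1 at 1.89 are the extremes, and every square keeps the side of its circle.

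Over all genes the largest differences included genes of low and of high signal. Prg2, the major basic protein of eosinophils, was 7.06 and 7.00 in set A and between 2.36 and 4.19 in set B, where all arrays were under the level, so it was at least 2.24-fold lower. Gria1, a glutamate receptor, and Mst1, a serum protein of the liver, were under the level in set A and at least 5.89-fold and 2.75-fold higher in set B. Foxp1, a transcription factor of airway epithelium, gave 13.02, 12.32, 10.64, 10.09, 9.90 and 9.75 (difference -2.57 ± 0.28, SE, limma adjusted p = 0.0031). Tdrp fell by 2.60 on the log2 scale and Alas2, of haem synthesis in red cells, by 2.54, while Tmem200c was at least 3.99-fold lower. Capn6, Cwh43 and Lrrn4cl were called but had set means under the level in both sets, so no fold is given.

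The same genes were then read in the exposed bronchi, by percentile and with no test. Of the 77 genes in the top 1% on all control arrays, 61 were so on all 3 non-fibrotic arrays and 52 on all 3 fibrotic arrays. In the non-fibrotic bronchi 76 were in the top 10% on every array. In the fibrotic bronchi 67 were, and 4 were outside it on all 3 arrays, namely the ciliated genes Dynlrb2, Rsph1 and Ccdc17 and the club cell gene Sec14l3.

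Scgb1a1 was the brightest gene on average in non-fibrotic bronchi and had a mean percentile of 98.28 in fibrotic bronchi. Foxj1 had 97.1 in non-fibrotic and 40.2 in fibrotic bronchi. Cyp2a3, at 99.25 in controls, had 48.5 and 8.89. Scgb3a1, which ran from the 75.8 percentile upward in controls, had 21.7 in non-fibrotic and 2.87 in fibrotic bronchi. Ribosomal protein genes such as Rps29 kept 99.87 and 99.94.

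Genes that divided the control sets were read in the same way. Lbh had a mean percentile of 99.7 in set A, 93.2 in set B, 99.4 in non-fibrotic and 99.6 in fibrotic bronchi. Ephb3 had 99.8, 97.3, 99.9 and 99.5 in the same order, and Foxp1 97.8, 76.3, 98.7 and 98.3. The exposed groups lay nearer to set A than to set B for these 3 genes. The array controls of the exposed groups were not nearer to 1 set throughout. Poly-A means were 10.77 in non-fibrotic and 9.36 in fibrotic bronchi, against 2.32 in set A and 10.35 in set B. In the same order, hybridization means were 13.70 and 13.13, against 13.67 and 12.44. The 3′ minus 5′ log2 signal of Gapdh averaged 2.19 and 1.87, against 1.60 and 0.78. That of beta-actin averaged 1.92 and 1.80, against 2.27 and 1.57. Their part in the values of these genes was not tested. Fgfbp1, in contrast, had 86.0 in set A, 98.7 in set B, 98.0 in non-fibrotic and 44.0 in fibrotic bronchi. Sftpb had 97.2, 99.9, 99.8 and 73.7 in the same order, and Cyp4b1 had 91.6, 99.1, 96.3 and 30.5. How many of all called genes lay nearer to either set in the exposed bronchi was not counted.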

How the data were processed

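Each of the 12 arrays measured amplified RNA of 1 laser-captured bronchial specimen. For every probe set the authors deposited 1 MAS5 intensity on a linear scale, after summarising its probes in the Affymetrix scanner software. The version of MAS5 and its scaling target are not given in the sources used here. The probe set names are those of the 3′ Rat Genome array, while the series text names another Affymetrix rat array. Of 31099 probe sets, 57 are Affymetrix controls and 31042 were tested. The array annotation, updated through RefSeq (assembly GRCr8), gave 1 symbol for 20826 of these, several for 436 (not used as genes) and none for 9780, which left 14217 genes.

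Signals were taken to log2 with no pseudocount and no filter. Percentiles were computed over genes within an array. Set B was compared with set A with limma 3.58.1 in R 4.3.3 (lmFit, then eBayes with trend). Tests were two-sided, and a call needed a p under 0.01 after Benjamini-Hochberg adjustment over all probe sets. The alternatives tried were other normalizations, floors, probe set choices, variance models and the removal of each array. On simulated data for this comparison (31042 probe sets), 25% of shifts of 2 and 31% of shifts of 3 (log2) were called, with 0 false calls among 56. The simulated noise was independent and normal, with the same spread in both sets and no offset between them. The real sets differed in scale and spread, so the simulation does not measure the error rate of the real calls. The number of arrays limits the precision. The level of absent transcripts is the highest of 66 values, those of the Trp control probe sets on 6 arrays and of the poly-A controls on replicates 1 and 2, where they read near background. "At least" folds compare the brighter set's mean with the dimmer set's mean after its arrays were raised to that level.

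The members and the 34 gene lists (20 of cell types, 14 of functions) were chosen with earlier results of these data known. Genes were named by rule: the 30 of highest mean percentile; in each list the 4 highest and the first 3 written; the 10 largest called rises and falls in the top 10%; the 10 smallest and largest ranges in the top 1%; and the 5 largest rises and falls over all genes. Krt17, Aqp3, Dcn, Ccdc17, Myh1, the widely varying secreted products, the genes whose promoter is printed, the lowest list members and the list members that were called were named after their values were seen. The median of a list stands in for a test of it. Promoter motifs were searched on both strands. Figures were drawn with matplotlib 3.10.9 in Python 3.11.15.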

Additional observations from a re-analysis of the deposited data

Results flagged for a closer look

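Of the 143 genes with values in the text, 14 had 1 control array far from the other 5, by Dixon's criterion for 6 samples. Chance flags about 1 in 20 groups, and over all 14217 genes 2007 (14.1%) were so marked, 824 of them at replicate 1 and 965 at replicate 2. Replicate 2 stood low for the smooth muscle genes Myh11 (10.57) and Tagln (9.95), for decorin, Dcn (7.70), and for the ribosomal protein genes Rpl28 (4.22) and Rpl30 (2.62). It stood high for the ciliated cell genes Dynlrb2 (13.96) and Foxj1 (12.94) and for Cyp2f4 (13.39), a cytochrome P450 of club cells. Replicate 1 stood low for Drc12 (11.75), of the axoneme, and for Hopx (11.08), and high for the collagen gene Col3a1 (13.98). Replicate 5 stood low for Ms4a1 (0.28), the B cell antigen, and for the protease inhibitor Slpi (8.46), and replicate 3 high for Cyp1a1 (3.48), which was under the level of absent transcripts on every array. All values are log2 signals.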

How the results depend on the processing

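The counts of probe sets called between control sets A and B moved with the variance model and with the arrays in the fit. At an adjusted p under 0.05 in place of 0.01, 3256 were higher in set B and 1972 lower. Median centring gave 458 higher and 615 lower, which turned the balance of directions, and 12 arrays in the same fit gave 49 higher and 91 lower. The mean of a gene's probe sets gave 417 higher and 109 lower, over fewer features tested. Without the intensity trend, and with array weights, limma called 0 in each direction at 0.01. At 0.05 those fits called 1806 higher and 934 lower, and 418 and 256, with 9277 and 5914 at an unadjusted p under 0.05. Leaving out 1 control array gave 0 to 3108 higher and 0 to 1378 lower, with fewer arrays in each fit. The larger counts came without replicate 1 (3108 and 1378) or replicate 2 (2514 and 1229), where the lone array of set A is assumed to vary like those of set B. Without replicates 3 or 4 there were 0 calls (8419 and 8359 at an unadjusted p under 0.05). In each of these fits all 1418 called probe sets kept their direction and an adjusted p under 0.05. After quantile normalization 1415 of 1418 kept their direction, and the difference of Gosr1 turned to 0.073. That of Emp2, a membrane protein of alveolar type I cells that was not called, turned to -0.98 without replicate 2 and was 1.22 without replicate 1. The number of stable genes fell to 2532 with 12 arrays in the fit and was 3927 to 5715 otherwise. With the mean of a gene's probe sets the median percentile became 81.6 for smooth muscle, 53.6 for macrophages, 81.5 for heat shock proteins, 95.8 for secreted host defence proteins and 50.1 for hypoxia-induced genes. Leaving out 1 array gave 12.8 to 14.96 for cartilage and 93.1 to 95.9 for secreted host defence proteins. The share of the top 1% held by all arrays ran from 52.2 to 79.0%. Causes were not tested. No paired analysis was possible because the sets share no replicate number and the labels pair no arrays. Genes near the level of absent transcripts are limited by signal over background.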
